A study of Homo sapiens with 16 samples.

Results

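This account covers the first-round acRIP peaks that lie in barely expressed genes of UM-UC-3, an established human bladder cancer cell line. The peaks were chosen by the level of their gene: a row of either first-round peak list was kept when the mean of its gene over 4 RNA-seq libraries was under 1 FPKM (fragments scaled to transcript length and library size). By this rule 214 of 685 peaks of the control list and 149 of 666 peaks of the NAT10-si list were kept, 363 of 1351 in all, and they are called members below. The members lay in 195 genes of the control list and 137 genes of the NAT10-si list, 324 different genes, of which 8 held a member in both lists. Every gene named in the lists was in the expression table, where 44298 of 58302 genes had a mean under 1.

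Cells of both arms were transfected with 75 nM siRNA in Lipofectamine RNAiMAX and taken at 48 h, the control arm with a control siRNA and the NAT10-si arm with an siRNA against NAT10. In acRIP, RNA that carries N4-acetylcytidine (ac4C) is pulled down with an antibody, and a peak is a stretch where the pulled-down RNA exceeds the input RNA. Peaks of each arm were listed for a first round and again for a replicate round, and only their names tell which first-round list is of which arm and that it is of that round, so both were taken from what the lists are called. The 4 expression libraries are replicates 2 and 3 of each arm, so they are not the RNA from which the first-round peaks came, and neither the libraries of T24 cells nor the earlier RNA-seq pair of UM-UC-3 were analysed here.

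NAT10 is the acetyltransferase that makes ac4C on ribosomal RNA, on some transfer RNAs and, as has been reported, on messenger RNA. An acRIP peak can only be read against the RNA present in the input, and in a gene with almost no RNA the input may hold very few reads under the peak. The fold of a peak over input is the authors' own value throughout and is used here only to describe and rank peaks.

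NAT10 itself had 19.0 and 17.6 FPKM in the control libraries and 4.04 and 3.84 FPKM in the NAT10-si libraries. This is a log2 change of -1.97 (SE 0.060, limma adjusted p = 0.000699), in the direction the labels give. Of urothelial and epithelial markers, KRT8 had 23.2 to 26.1 FPKM and KRT18 53.0 to 85.8 FPKM in the 4 libraries. UPK2, a uroplakin, had 1.62 to 2.48 FPKM, and PPARG and KRT7 had means of 1.38 and 2.52 FPKM. UPK3A, a defining uroplakin, was listed at 0 in all 4 libraries, and KRT5, TP63 and UPK1B had means of 0.0315, 0.0820 and 0.0877 FPKM. Of the 26 urothelial markers listed, 18 had a mean under 1, and none of them held a member. The steps between the lowest FPKM values gave the relative depth of the libraries: 1 read was worth 1.87, 1.93 and 2.05 times as much FPKM in control replicate 3, NAT10-si replicate 2 and NAT10-si replicate 3 as in control replicate 2, which was therefore the deepest library.

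Sequence could be shown for the few members that reach into a promoter window of RefSeq (250 bases before to 50 bases after a gene start, GRCh38.p14). Segments of at least 40 bases, ending at most 30 bases past the start site, were found under 11 members. The windows searched do not cover every chromosome, so 11 is not a count over all members. Of the 11 segments, 5 are printed here. Those of CD68, ASB2 and TXLNB were chosen because they cover the start of their own gene. The segment of ENSG00000272703 was chosen because its peak returned in the replicate round, and that of ENSG00000280383 for its cytosines. Each is written 5′ to 3′ on the strand of the peak. Capitals mark the 4 cytosines of each match to CNNCNNCNNCNN, cytosines spaced with 2 bases between them, a pattern that has been reported around ac4C sites. Matches may overlap each other.
CD68, chr17:7579617-7579667, plus strand: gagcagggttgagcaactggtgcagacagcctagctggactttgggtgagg
ASB2, chr14:93957018-93957144, minus strand: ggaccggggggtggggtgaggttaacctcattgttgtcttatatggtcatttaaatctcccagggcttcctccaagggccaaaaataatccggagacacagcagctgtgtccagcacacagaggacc
TXLNB, chr6:139291969-139292049, minus strand: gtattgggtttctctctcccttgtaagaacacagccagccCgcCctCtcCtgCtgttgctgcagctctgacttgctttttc
ENSG00000272703, chr18:11857503-11857554, minus strand: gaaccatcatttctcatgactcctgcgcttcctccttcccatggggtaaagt
ENSG00000280383, chr22:45671584-45671737, plus strand: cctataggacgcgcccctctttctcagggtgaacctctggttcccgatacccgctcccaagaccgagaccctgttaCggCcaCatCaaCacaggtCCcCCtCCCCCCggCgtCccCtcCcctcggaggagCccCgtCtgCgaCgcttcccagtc

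The segment under ENSG00000280383, which lies before the start of ATXN10, held 9 matches on the printed strand and none on the other, and 44.8% of its bases were cytosine. Of the 35116 promoter windows searched, 74.6% held a match on either strand within a stretch of that length. The TXLNB segment held 2 matches on each strand (55.1% of windows at its length), the ASB2 segment none on the printed strand and 1 on the other (68.9%), and the CD68 and ENSG00000272703 segments none on either strand (39.9% and 40.5%). The cytosine share was 17.6% under CD68, 24.4% under ASB2, 33.3% under TXLNB and 32.7% under ENSG00000272703. Over the windows searched it was 27.2% to 27.9% at these lengths. CD68, whose peak had the highest fold of the control members, thus had the lowest cytosine share of the 5 segments. A match is a description of the letters and not a modified site.

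The levels of the member genes were not spread evenly below 1 FPKM. Of the 214 control members, 43 lay in genes listed at 0 in all 4 libraries, 30 in genes above 0 and up to 0.01, 77 above 0.01 and up to 0.1, 44 above 0.1 and up to 0.5, and 20 above 0.5. The NAT10-si members divided into 49, 20, 32, 30 and 18 in the same order. The share at 0 was 20.1% of the control members (95% exact Clopper-Pearson interval 14.9 to 26.1%) and 32.9% of the NAT10-si members (25.4 to 41.0%). Empty genes are common in the table, where 27571 of all 58302 genes were above 0 in at least 2 libraries. The share at 0 was not counted over all genes under 1 FPKM, so it does not set the members apart from them. These intervals, like all others here, cover counting error only.

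The low values were whole multiples of what 1 read is worth, so reads could be recovered, as the smallest whole numbers that fit, for genes above 0 in at least 2 libraries. This gave 129 of the 195 control member genes a median of 29 reads summed over the 4 libraries, with a range from 2 to 1307 (LAMA1, a laminin chain of basement membranes). For 79 of the 137 NAT10-si member genes the median was 56 reads, with a range from 2 to 1429 (CNKSR3). At most 20 reads in all were recovered for 57 control and 29 NAT10-si member genes. For 376 of the 425 genes of the other control peaks reads were recovered, with a median of 5165, and none had 20 or fewer. These reads come from the 4 libraries whose mean chose the members, so the difference follows from the rule.

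**Figure D1:**
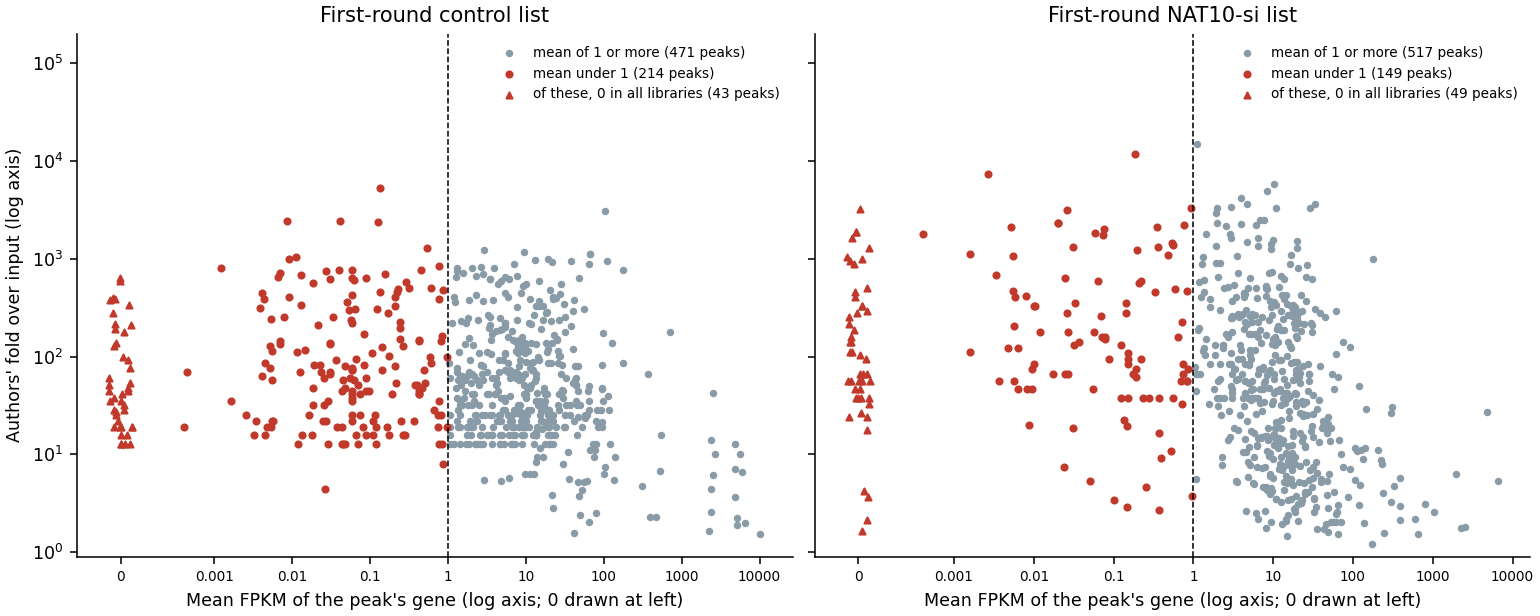
Each point is 1 peak of a first-round list: the mean FPKM of its gene on the x axis (log scale, 0 drawn at the left as triangles with a small sideways scatter) and the authors' fold over input on the y axis (log scale). Members (red) lie left of the dashed line at 1 FPKM and reach folds of 5250 in the control list and 11700 in the NAT10-si list, and the other peaks (grey) lie right of it.

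At the threshold the peaks passed over smoothly. The control member genes just under it were SCML2P1 (0.972 FPKM), CALHM5 (0.960) and TXNDC11-AS1 (0.861), and just over it lay ENSG00000260461 (1.04), SNX29 (1.05) and ENSG00000279407 (1.05). In the NAT10-si list ZNF460 (0.949 FPKM), XAF1 (0.940) and AKNA (0.856) lay under it, and ZNF43 (1.06) and RIPK2-DT (1.07) over it. The line is thus a convention and marks no gap.

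The member genes were of other types than the genes of the other first-round peaks. In the control list 109 of 195 member genes were protein coding by RefSeq (55.9%, interval 48.6 to 63.0%), against 387 of 425 genes of the other peaks (91.1%, 87.9 to 93.6%). In the NAT10-si list the counts were 75 of 137 (54.7%, 46.0 to 63.3%) and 459 of 488 (94.1%, 91.6 to 96.0%). Long noncoding RNAs made up 28 and 10 member genes (14.4% and 7.30%), pseudogenes 22 and 12 (11.3% and 8.76%), and 35 and 39 (17.9% and 28.5%) matched no RefSeq entry by symbol. Among the other peaks, long noncoding RNAs and pseudogenes were 2.12% each in the control list, and 1.43% and 0.820% in the NAT10-si list.

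Against all barely expressed genes of the table the difference ran the other way, since only 8717 of those 44298 genes (19.7%) were protein coding and 12495 (28.2%) were pseudogenes. A first-round peak in either list was held by 178 of the 8717 protein coding genes under 1 FPKM (2.04%, interval 1.76 to 2.36%), by 38 of 4290 long noncoding RNAs (0.886%, 0.628 to 1.21%) and by 34 of 12495 pseudogenes (0.272%, 0.189 to 0.380%). Of the 14004 genes at 1 FPKM or more, 873 held one (6.23%, 5.84 to 6.65%). Gene length was not accounted for in these shares.

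**Figure D2:**
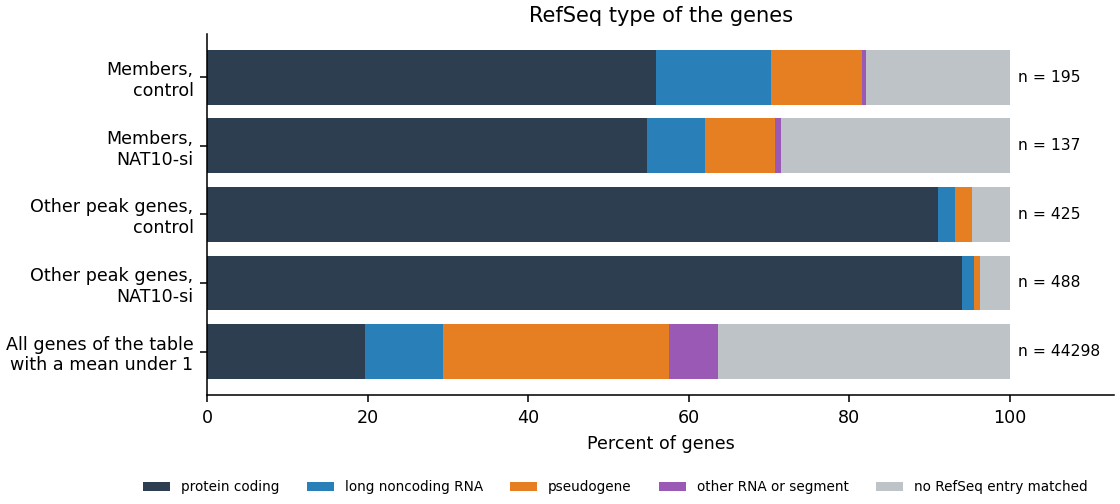
Stacked bars give the percent of genes of each RefSeq type, with the number of genes at the right of each bar. Protein coding genes take 55.9% and 54.7% of the member genes, 91.1% and 94.1% of the genes of other first-round peaks, and 19.7% of all genes with a mean under 1.

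Among the noncoding members, CYLD-AS1, an antisense transcript of the CYLD locus, had a fold of 1280 over 299 bases and was measured at 0.513 and 0.434 FPKM in control and 0.511 and 0.705 FPKM in NAT10-si. PRNCR1, a long noncoding RNA of the 8q24 region, had a fold of 2410 with 0.0709 and 0.0482 FPKM in control and 0.00830 and 0.0352 FPKM in NAT10-si. LINC02076 in the NAT10-si list had a fold of 2190, and its 4 libraries read 0.687, 0.928, 0.593 and 0.807 FPKM. By symbol, 6 LINC genes of each list and 8 antisense (-AS) genes of the control list and 2 of the NAT10-si list were members. These are 12 of 2120 LINC genes under 1 FPKM (0.566%) and 10 of 1278 antisense genes (0.782%). Both shares are near the 0.731% of all 44298 genes under 1 FPKM. No microRNA gene (of 1803) and no immunoglobulin or T cell receptor segment (of 630) was a member. No gene of the mitochondrial chromosome was either, but 15 of 471 other control peaks were mitochondrial. Genes as high as MT-CO3 (mean 5585 FPKM) cannot be members by the rule. The arms overlapped for CYLD-AS1 and LINC02076. For PRNCR1 both control values were above both NAT10-si values, all of them under 0.1 FPKM.

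Some members carry the name of a small RNA that every cell makes in large amounts. RN7SL1, one of the genes for the RNA of the signal recognition particle, was listed at 0 in all 4 libraries, yet its 269-base NAT10-si peak had the lowest p of all members of that list, a log10 p of -80300 at a fold of 24.1. RN7SL5P, RN7SL241P, RN7SL191P and RN7SL268P, which are copies of the same RNA, and RN7SKP71 and RN7SKP150, copies of the 7SK RNA, were members too, with folds from 1.67 (RN7SKP71) to 281 (RN7SL241P). SCARNA5, a guide RNA of the Cajal body that lies within ATG16L1, was also listed at 0 and had a fold of 26.9. RN7SK, the 7SK gene itself, was likewise listed at 0. Since 7SK and 7SL RNA are abundant in every cell, a gene without reads is called listed at 0 here and not absent.

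Pseudogene members could be set against the gene they were copied from for 22 pseudogenes (23 peaks) whose symbol names one. The parent had a median of 41.8 FPKM and the pseudogene a median of 0.0114 FPKM. For 14 of the 22 pseudogenes the parent was at 10 FPKM or more, and for 3 it was under 1 FPKM. Reads of a pseudogene and of its parent may be shared where the copies are nearly identical, so the position of these peaks is uncertain. Whether reads were shared was not tested. RPS7P9, a copy of a ribosomal protein gene, was listed at 0 in all 4 libraries with a fold of 177, and RPS7 had a mean of 117 FPKM. ATP5PBP8 (fold 1030) had a mean of 0.0110 FPKM, all of it in 1 library, and ATP5PB, a subunit of the ATP synthase, 53.4 FPKM. MTCO3P42 held 2 members, at folds of 25.3 and 136, and MTCO3P18 1 at 53.8; both are nuclear copies of mitochondrial MT-CO3, which had a mean of 5585 FPKM. In the NAT10-si list FTH1P5 had a fold of 5.36 against 505 FPKM of the ferritin gene FTH1, and COX6CP8 a fold of 403 against 47.2 FPKM of COX6C. Of these parents, RPS7, ATP5PB, FTH1 and COX6C held no peak in either first-round list, and MT-CO3 held 1 in the control list.

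Peaks of different genes also overlapped each other. On the same strand, 13 of 214 control members (6.07%) and 26 of 149 NAT10-si members (17.4%) overlapped a peak of another gene in the same list, against 3 of 471 and 10 of 517 other peaks (0.637% and 1.93%). Of the 49 NAT10-si members in genes listed at 0, 15 did so. Some of these partners were expressed: ENSG00000277726 overlapped the peak of TARDBP (17.2 FPKM), ENSG00000272772 that of PPP2CA (25.4), ENSG00000262660 that of MRPL12 (15.5) and RNF103-CHMP3 that of CHMP3 (8.14). Others were read-through transcripts, which join 2 neighbouring genes, and one of the genes they join: RNASEK-C17orf49 and C17orf49 both had a fold of 28.5, ARL2-SNX15 and SNX15 both 25.3, and SYS1-DBNDD2 and DBNDD2 both 409. These members are separate rows of the lists and may count the same reads.

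Peaks were also listed on both strands of 1 place. In the control list 5 such pairs held a member, and in all 5 the folds of the 2 strands were within 10% of each other. HOXA7, a homeobox gene, and HOXA-AS3 both had 79.2, SCML2P1 and LINC00668 both 98.2, TNS1-AS1 and TNS1 both 38, and PRNCR1 and ENSG00000224722 had 2410 and 2370. Of the 14 control pairs with no member, 13 were within 10% as well. In the NAT10-si list 3 of 5 pairs with a member were within 10%, and THBS1 (fold 1330) and ENSG00000259279 (fold 56.2) lay furthest apart. The labels do not say whether the libraries kept the strand, and without it reads of a gene and of its antisense partner cannot be told apart.

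In width the members were like the other first-round peaks. The median covered length was 181 bases for both in the control list, with quartiles of 179 and 240 bases for members and 151 and 211 for the others, and 180 against 181 bases in the NAT10-si list, with quartiles of 175 and 211 and of 180 and 211. More than 1 block was listed for 56 of 214 control members (26.2%, interval 20.4 to 32.6%) and 37.4% of the other control peaks (33.0 to 41.9%). Among NAT10-si peaks it was listed for 40 of 149 members (26.8%, 19.9 to 34.7%) and 38.5% of the others (34.3 to 42.8%), and these intervals overlapped. Peaks over 300 bases wide were 25 of 214 control members (11.7%, interval 7.70 to 16.8%) and 31 of 471 other control peaks (6.58%, 4.52 to 9.21%), and 6 of the 25 were peaks of MUC4. The shares of the NAT10-si list were 6.71% and 5.80%. Of control members with a RefSeq entry, 171 of 177 overlapped that gene, and in the NAT10-si list 104 of 108 did. Along the gene from 5′ to 3′, taken as 0 to 1, the median midpoint was 0.58 for control members and 0.69 for NAT10-si members, against 0.72 and 0.77 for the other peaks.

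The widest members were peaks of mucin genes. MUC3A, which encodes a membrane mucin of the gut, held a control member of 1528 bases (fold 640, chr7:100957546-100959073, plus strand), and MUC4, another membrane mucin, held one of 1081 bases at the same fold and 3 of 481 to 511 bases. The widest NAT10-si members were GOLGA6L25 (537 bases, fold 3210) and GOLGA6L24 (508 bases, fold 937), members of a golgin-like family with many near-identical copies on chromosome 15, both listed at 0 in every library. They were followed by TAF1L (449 bases), a retrogene copy of the transcription factor subunit TAF1, XAF1 (420 bases), an interferon-induced gene, and CA8 (391 bases), a carbonic anhydrase-related gene. XAF1, at 0.854 to 1.02 FPKM, and CA8, at 0.532 to 0.619 FPKM, were the best expressed of them.

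MUC4 alone held 11 control members, 5.14% of them, on the minus strand of chr3:195778840-195786698. They covered 4451 of 7859 bases (56.6%) and had folds from 22.2 to 767 with a median of 72.9. No other first-round member gene had over 3 peaks, and none of the other 3 lists held a peak of MUC4. The gene, whose central exon consists of many tandem repeats, had 0.0179 and 0 FPKM in the control libraries and 0.166 and 0.0524 FPKM in the NAT10-si libraries. Both NAT10-si values were thus above both control values, although the peaks were listed for the control arm. Without the MUC4 rows the control list had 203 members with a median fold of 63.4 in place of 65.0.

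**Figure D3:**
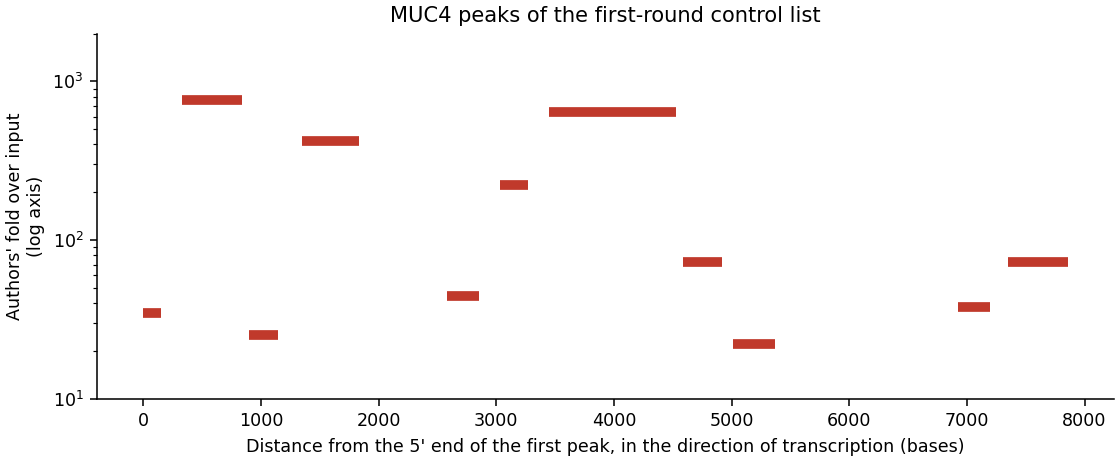
Each bar is 1 of the 11 MUC4 peaks of the first-round control list, drawn at its distance in bases from the 5′ end of the first peak (x axis) and at the authors' fold over input (y axis, log scale). The peaks follow each other over 7859 bases with folds between 22.2 and 767.

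Of 17 genes named MUC and a number in the table, 15 had a mean under 1. Of these, 5 held a first-round member (33.3%): MUC3A, MUC4, MUC5AC, MUC6 and MUC12. Over all 8717 protein coding genes under 1 FPKM the share was 2.04%. This family was singled out after its values were seen, and gene length was not accounted for, so its share is not a result about mucins. MUC6, a gel-forming gastric mucin, had a fold of 599 in the control list with 0.0778, 0.103, 0.0376 and 0.0265 FPKM in the 4 libraries. MUC12 had a fold of 12.7 in the control list and MUC5AC, the gel-forming mucin of airway and stomach, 141 in the NAT10-si list. MUC2, MUC5B and MUC16 held no first-round peak. Some epithelial genes, picked after their values were seen, were highest in NAT10-si replicate 2 and next in NAT10-si replicate 3: MUC2 had 0.0173, 0, 1.72 and 0.344 FPKM, KRT19 0.0585, 0.0656, 3.25 and 0.646 FPKM and KRT20 0, 0, 0.686 and 0.121 FPKM in the 4 libraries. MUC4, MUC3A and MUC5AC followed the same order within the NAT10-si arm. Others did not: KRT7 had 1.76, 1.62, 2.98 and 3.72 FPKM, KRT18 85.7, 85.8, 53.0 and 53.6 FPKM, and MUC6 was lower in both NAT10-si libraries than in both control libraries. Whether the values that follow 1 order share a source was not tested.

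The folds of the members were higher than those of the other peaks. The median fold was 65.0 for control members and 39.1 for the other control peaks, and 122 against 42.2 in the NAT10-si list. The median log10 p was -24.4 for members against -22.5 in the control list, so that both medians were stronger there. It was -25.6 against -45.7 in the NAT10-si list, so that the members had the higher fold and the weaker p. The commonest folds stood in equal steps, 12.7, 15.8, 19, 22.2 and 25.3 in the control list and 37.5, 46.9, 56.2 and 65.6 in the NAT10-si list. In the NAT10-si list 28.2% of the members and 9.67% of the other peaks had 1 of the 6 commonest folds of their set, and in the control list 30.4% and 30.8%. The depth of the immunoprecipitate and input libraries is not given in the peak lists.

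The highest folds of the control members belonged to CD68, a lysosomal glycoprotein known as a macrophage marker, with 5250, and to ENSG00000264772, which overlaps it on the same strand, with 2410. CD68 had 0.125 and 0.163 FPKM in control and 0.0482 and 0.204 FPKM in NAT10-si, from 27 recovered reads in all. PRNCR1, ENSG00000224722 and CYLD-AS1 followed. In the NAT10-si list MEGF11, a cell adhesion gene of neurons and the retina, had a fold of 11700 (241 bases, chr15:65897835-65898075, minus strand) with 0.195 and 0.166 FPKM in control and 0.161 and 0.216 FPKM in NAT10-si. SCN3A, a neuronal sodium channel, had a fold of 7310 and a value above 0 only in NAT10-si replicate 2, at 0.0107 FPKM. XAF1 (3300), GOLGA6L25 (3210) and TLL2 (3140), a metalloprotease of the tolloid family, came next. The arms overlapped in expression for CD68 and MEGF11.

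Genes known for restricted expression were grouped into 13 tissue lists, which held 1932 genes under 1 FPKM. Of these, 47 held a first-round member (2.43%), 35 in the control list and 15 in the NAT10-si list, against 178 of 8717 protein coding genes under 1 FPKM (2.04%). By list the share ran from 0 for the olfactory, taste and vomeronasal list and 0.324% for germ line and testis to 3.91% for ion channels, each from 10 or fewer genes. The lists leave out some genes of their tissue, so these shares depend on which genes were listed. A peak anywhere in the gene was found in a replicate-round list for 11 of the 47 genes, beside 41 of all 178 protein coding member genes.

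Ion channels of excitable cells gave 5 of 128 genes. Among them were KCNJ9 (34.8), an inwardly rectifying potassium channel, in the control list, and KCNQ3 (262), SCN3A (7310) and TRPV3, a skin cation channel with 2 peaks (56.2 and 206), in the NAT10-si list. Receptors and synapse genes gave 5 of 153: GRIN2B and GRIA2, subunits of the NMDA and AMPA glutamate receptors, held 2 peaks each, GRIN2B at 85.5 and 15.8 in the control list and GRIA2 at 1130 and 112 in the NAT10-si list. GRIA2 was above 0 only in NAT10-si replicate 3, at 0.00625 FPKM. SHANK2 (22.2), the noradrenaline transporter SLC6A2 (50.7) and CNTNAP2 (84.4) completed them. Neuronal adhesion and glia gave 4 of 148 genes, CNTN3 (19), CSMD2 (50.7) and DPP6 (19) in the control list and MEGF11 in the NAT10-si list.

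Immune and blood cell genes gave 10 of 289 genes, 9 of them in the control list. Besides CD68 these were IL18RAP (fold 76), an interleukin 18 receptor chain listed at 0 in every library, EPB42 (60.2) and ALAS2 (47.5), both genes of red cells, and CXCR1, CD1D, CIITA, CLEC10A and LTB at 12.7 to 44.3. The NAT10-si list held CD68 again and CCL22, a chemokine listed at 0 in every library, with a fold of 1300. Liver, kidney and gut gave 8 of 223. The control list held the bile acid transporter SLC10A2 (114), transferrin TF (111), SLC34A3 (15.8) and the mucins MUC3A, MUC6 and MUC12. The NAT10-si list held ITIH3 (412) and the mucins MUC3A and MUC5AC. Skeletal and heart muscle gave 3 of 118, all in the control list, among them MYH2 (133), a fast myosin heavy chain, and PYGM (66.5), the muscle glycogen phosphorylase.

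Among the remaining lists, FLG2, a filaggrin of the epidermis, had a fold of 763 and was the only member of 144 genes. PDE6B, a phosphodiesterase of rod photoreceptors, had a fold of 675 and was the only one of 89. SPATA8, a testis gene, had 34.8 and was the only one of the 309 genes of the germ line and testis list. That list is not complete. TEX45 (225) and TEX55 (91.9) of the control list and TESMIN (675) of the NAT10-si list, named for the testis, were members outside it. SCG5 (196) and TAC3 (12.7) of the control list and PDX1 (187), the pancreatic homeobox factor, of the NAT10-si list were the 3 of 92 endocrine genes. Cartilage, bone and stroma gave 3 of 98: ADAMTS2 with 2 peaks (41.2 and 146) and COL22A1 (212) in the control list, and RUNX2 (56.2) in the NAT10-si list. The ciliary axoneme gave 3 of 110, DNALI1 (12.7), DNAH14 (65.6) and ODAD1, which was in both lists. By symbol, 7 of 853 olfactory receptor genes and pseudogenes under 1 FPKM held a member, from OR4S1 and OR4A13P at 19 to OR2M3 at 2000.

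Few members came back in the replicate round. By at least 1 base on the same strand, 3 of 214 control members overlapped a peak of the replicate-round control list (1.40%, interval 0.290 to 4.04%), against 38 of the 471 other control peaks (8.07%, 5.77 to 10.9%). In the replicate-round NAT10-si list 8 of the 214 did (3.74%, 1.63 to 7.23%), against 79 of 471 (16.8%, 13.5 to 20.5%). Of the 149 NAT10-si members, 2 overlapped the replicate-round control list (1.34%, 0.163 to 4.76%) and 10 the replicate-round NAT10-si list (6.71%, 3.27 to 11.996%), against 39 and 71 of the 517 other peaks (7.54%, 5.42 to 10.2%, and 13.7%, 10.9 to 17.0%). The intervals of members and other peaks were apart in 3 of these 4 comparisons and overlapped for NAT10-si members in the replicate-round NAT10-si list. Seen from the other side, control members overlapped 2 of 10253 peaks of the replicate-round control list (0.0195%) and 8 of 16753 of the NAT10-si list (0.0478%), and NAT10-si members 3 (0.0293%) and 12 (0.0716%). These percentages are of the whole lists, in which only 1232 control and 2500 NAT10-si peaks lay in genes under 1 FPKM.

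The same was counted at the level of the gene. A replicate-round control peak anywhere in the gene was held for 25 of 214 control members (11.7%) and 291 of 471 other control peaks (61.8%), and a replicate-round NAT10-si peak for 30 of 149 NAT10-si members (20.1%) and 407 of 517 others (78.7%). Of all 44298 genes under 1 FPKM, 2.50% held a replicate-round control peak and 4.64% a replicate-round NAT10-si peak. The member genes stood above that level, with 25 of 195 (12.8%, 8.47 to 18.3%) and 29 of 137 (21.2%, 14.7 to 29.0%). Only 19.7% of all genes under 1 FPKM were protein coding, against 55.9% and 54.7% of these member genes. The shares were not matched for gene type, length or level, so they do not measure how well members repeat.

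Between the 2 first-round lists, members and other peaks were alike: 7 of 214 control members (3.27%, 1.33 to 6.62%) overlapped a peak of the NAT10-si list, against 15 of 471 others (3.18%, 1.79 to 5.20%), and 7 of 149 NAT10-si members (4.70%, 1.91 to 9.44%) a peak of the control list, against 14 of 517 (2.71%, 1.49 to 4.50%).

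**Figure D4:**
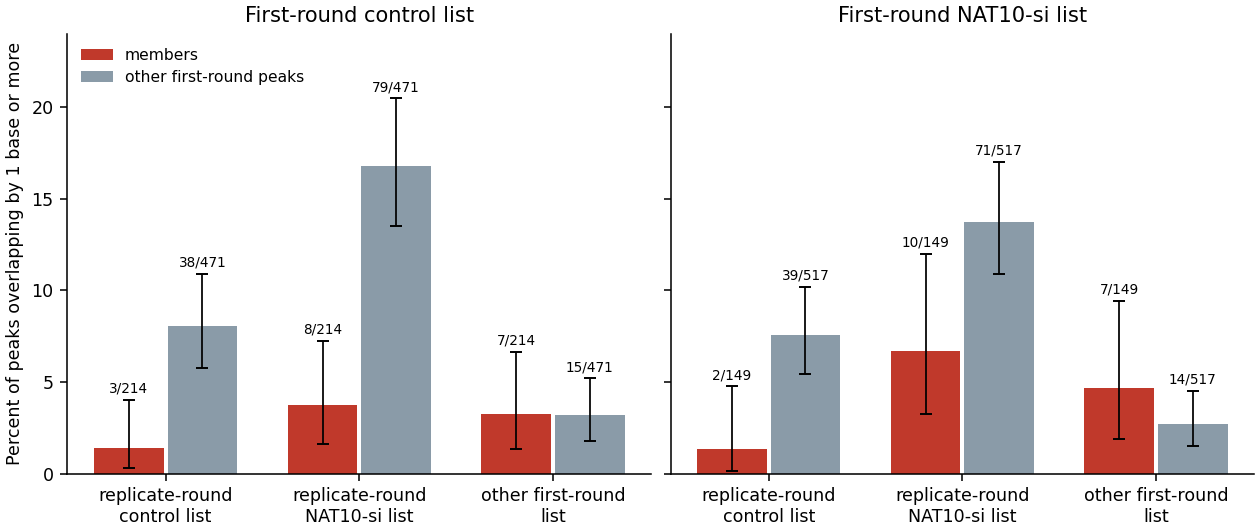
Bars give the percent of members (red) and of other first-round peaks (grey) that overlap, by 1 base or more on the same strand, a peak of each replicate-round list and of the other first-round list, with 95% exact intervals and counts. Members overlap the replicate-round lists in 1.34% to 6.71% of cases and other peaks in 7.54% to 16.8%, and both overlap the other first-round list in 2.71% to 4.70%.

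The 8 control members that returned include 2 overlapping pairs of genes, CD68 with ENSG00000264772 and C17orf49 with its read-through. LINC01123 had a fold of 41.2 in the first-round control list, 7.79 in the replicate-round control list and 7.02 in the replicate-round NAT10-si list, and overlapped no peak of another gene. Its first-round peak did not overlap the RefSeq gene of that name. TEX45, a testis gene, had 225 and then 84.2 in the replicate-round NAT10-si list, ENSG00000272703 12.7 and then 44.2, and LTB, a lymphotoxin chain, 12.7 and then 21.1. The replicate-round peak of LTB had a log10 false discovery rate of -0.717, so it did not reach 0.05. RNASEK-C17orf49 and C17orf49 both had 28.5 in the first round. At their place the replicate-round control list held a peak of RNASEK-C17orf49 at 1.72, and the NAT10-si list one of RNASEK-C17orf49 at 1.7 and one of C17orf49 at 23. CD68 had 5250 in the first-round control list, 22.3 in the first-round NAT10-si list and 1.55 in the replicate-round NAT10-si list.

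Of the NAT10-si members, LINC02076 had a fold of 2190 and then, in the replicate-round NAT10-si list, 6.24 and 1.58 over 2 peaks. HLA-DOB, an MHC class II chain, had 459 and then 28.1, C12orf56 637 and then 14, and ENSG00000233478 122 and then 14. The replicate-round peaks of C12orf56 and ENSG00000233478 had a log10 false discovery rate of -0.426, so they did not reach 0.05. ENSG00000267303 had 46.9 and returned in the replicate-round control list at 18.6, where RAVER1, an expressed gene at 5.65 FPKM, also had an overlapping peak (15.6). ENSG00000277726 met peaks of TARDBP in both replicate-round lists (65.2 and 94.1), and ENSG00000262660 met a peak of MRPL12 in the NAT10-si list (3.59). Of the 11 NAT10-si members that returned in either list, 4 lay in genes listed at 0, and all but 1 had a lower replicate-round fold under their own gene name or met only the peak of an expressed neighbour. The exception was ENSG00000277726, at 2.16 and then 5.13.

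Members at the same place in both first-round lists were F5, MUC3A, ENSG00000257346, DHH, CD68, ENSG00000264772 and ODAD1, and MUCL3 held a member at another place in each list. F5 encodes coagulation factor V, DHH the desert hedgehog ligand and ODAD1 a docking subunit of ciliary dynein. The authors' folds of the 2 arms differed widely for them: in the control and NAT10-si lists these were 22.2 and 469 for F5, 640 and 93.7 for MUC3A, 41.2 and 1840 for DHH, 5250 and 22.3 for CD68, and 697 and 109 for ODAD1. ENSG00000257346 lies opposite to DHH and had the same 41.2 and a similar 1730. F5 was above 0 in NAT10-si replicate 2 only (0.0221 FPKM), DHH had 0.0141, 0.0528, 0.0818 and 0.0867 FPKM, and ODAD1 0.127, 0.119, 0.160 and 0.208 FPKM in the 4 libraries. Folds of separate lists rest on separate inputs, so a change of the mark cannot be read from them.

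The expression of the member genes was compared between the arms in the same 4 libraries whose mean chose them, so the counts are a description and not a result about the members. Of the 324 member genes, 106 reached the mean of 0.1 FPKM needed for the fit, and limma called 7 higher and 3 lower at an adjusted p under 0.05 (6.60% and 2.83%). Over all 22417 genes fitted, 17.8% were called higher and 16.6% lower, and of the 8413 fitted genes under 1 FPKM 6.80% and 2.81%. The median log2 change was 0.03 for the member genes and 0.03 for all genes fitted. Fold changes are on the scale of log2(FPKM + 1), which understates the change of such low genes. Nothing says that the replicates are separate cultures, so the p-values may measure technical spread only.

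H2AC14, a histone H2A gene, had 0.141 and 0.264 FPKM in control and 1.36 and 1.30 FPKM in NAT10-si (log2 change 0.96, SE 0.099, limma adjusted p = 0.00381), from 2, 2, 10 and 9 recovered reads. ENSG00000272703, whose peak returned in the replicate round, had 0.205 and 0.255 against 1.45 and 1.12 FPKM (0.89, SE 0.11, adjusted p = 0.00622). ZNF460, a zinc finger gene, had 0.491 and 0.568 against 1.46 and 1.28 FPKM (adjusted p = 0.00978), and ADAMTS13, the protease that cleaves von Willebrand factor, 0.479 and 0.474 against 1.28 and 1.04 FPKM (adjusted p = 0.0169). PTGES, a prostaglandin E synthase, DNAH14 and SPDYE5 were the other 3 called higher, with log2 changes of 0.48, 0.35 and 0.38. The groups did not overlap for any of the 7 genes.

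The 3 genes called lower were CCDC90B-AS1 (0.672 and 0.700 against 0.260 and 0.0590 FPKM, log2 change -0.55, limma adjusted p = 0.0294), the zinc finger gene ZNF888 (0.904 and 1.00 against 0.535 and 0.466 FPKM, adjusted p = 0.0355) and RPL36AP15 (0.308 and 0.576 against 0 and 0 FPKM, adjusted p = 0.0375). The values of RPL36AP15, a copy of the ribosomal protein gene RPL36A, correspond to as little as 1 read in each control library. Without either control library 0 member genes were called in either direction. Without NAT10-si replicate 2 the counts were 2 higher and 1 lower, without NAT10-si replicate 3 they were 2 and 0, and with the replicate number as a block 4 and 0.

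**Figure D5:**
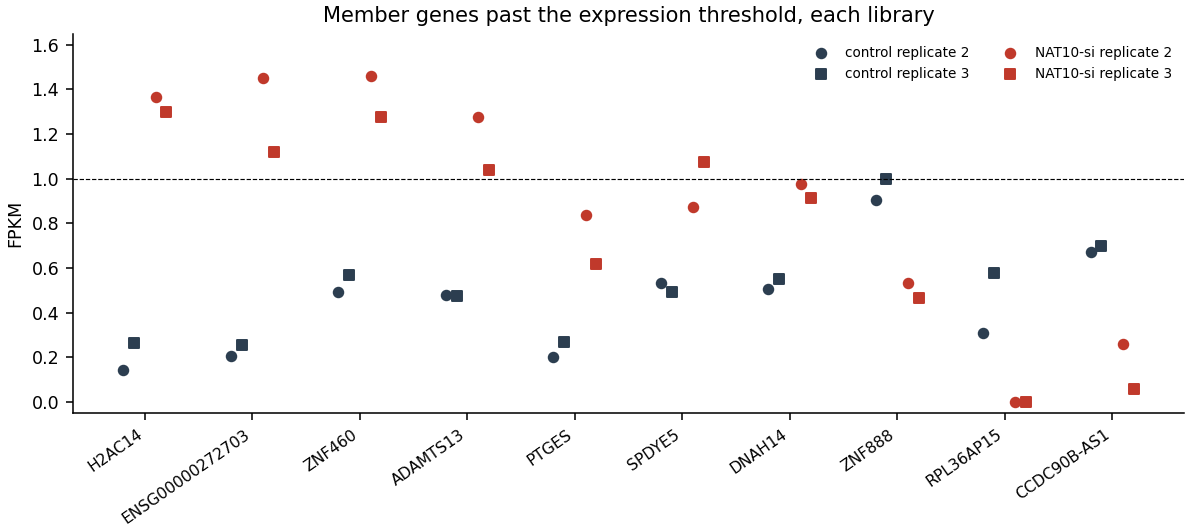
Points give the FPKM of the 10 member genes past the threshold in each of the 4 libraries (control dark blue, NAT10-si red, circles replicate 2, squares replicate 3), with the dashed line at 1 FPKM. For the 7 genes at the left both NAT10-si values lie above both control values, and for the 3 at the right below.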

How the data were processed

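The members and gene lists were chosen with earlier results of these data known. The authors deposited the expression values as 1 table whose header names no unit, and they were read as FPKM because the columns sum to 310508 to 319224 and their steps depend on the gene. Each deposited peak list holds, as the authors' peak caller wrote them, a fold (the ratio over input), a p-value, and log10 scores for p and for the false discovery rate. Per the submitters' processing notes HISAT2 2.1.0, HTSeq 0.6.1, bcl2fastq 2.19.1 and the build hg19 were used. For the peak caller, no name was given in the sources used here. The peaks were nevertheless read as GRCh38, since 657 of 9578 replicate-round control peaks with a RefSeq gene begin exactly 1 base before its GRCh38.p14 start (0-based), and starts are printed 1-based.

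Gene IDs were matched to symbols for 254 of 324 member genes, and 252 matched RefSeq by symbol. Widths are summed block lengths. Peaks overlapped when blocks on the same strand shared at least 1 base. Shares have 95% exact Clopper-Pearson intervals (scipy 1.17.1) and no test. Expression was fitted with limma 3.58.1 (R 4.3.3, trend) on log2(FPKM + 1) for 22417 genes with a mean of at least 0.1, 2 libraries per arm, with Benjamini-Hochberg adjustment. The fit was tested on simulated data in which only genes at 1 FPKM or more were changed. That test therefore does not cover changes at the level of the member genes. Genes were named by rule: in each list the 5 highest folds and 5 widest members, members overlapping a replicate-round peak, genes in both lists, 3 genes on each side of the threshold, up to 4 members of each tissue list, and the 5 rises and 5 falls with the lowest p; the others named were chosen after their values were seen. A few genes that the rule names are not reported here. Alternatives are given in the closing section.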

Additional observations from a re-analysis of the deposited data

How the results depend on the processing

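The number of members stayed within 1.5 times under every alternative run: 123 to 181 in the NAT10-si list and 194 to 269 in the control list. The highest counts came with a mean under 2, the lowest with a mean under 0.5 in the control list and without the members that overlap a peak of another gene in the NAT10-si list. Leaving those members out, an alternative chosen after seeing the data, lowered all 4 shares repeated in the replicate-round lists by over 1.5 times. For NAT10-si members the share in the control list went from 1.34% to 0 of 123 and that in the NAT10-si list from 6.71% to 4.07%. A rough upper limit for the count of 0, taken as 3 of 123, is 2.44%, which is not an exact interval. For control members the shares went from 1.40% to 0.498% and from 3.74% to 1.99%. Requiring that 50% of the bases be covered left 1 and 5 of 214 control members and 1 and 5 of 149 NAT10-si members repeated. Keeping only replicate-round peaks with a false discovery rate of at most 0.05 left 3 and 7 of 214 control members. For the 149 NAT10-si members it left 2 in the control list and 7 (4.70%) in the NAT10-si list.

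The calls of member genes depended on the fit; the cause was not tested. The count called higher was 7, and 4 with the replicate block, 14 with limma without trend, and 0 to 2 with 1 library left out. The count called lower was 3, and 0 with the replicate block, 1 without the filter, 1 at a mean of at least 0.5, and 0 to 1 with 1 library left out. With 1 library left out, an arm has 1 library, assumed to vary like the other arm. Same-numbered libraries share only a number (correlation of their deviations over genes -0.0019, 2 pairs), so the replicate block is an alternative and not a pairing. With 2 libraries per arm and at most 20 reads for many genes, depth limits the precision of these values.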
